A study of Mus musculus with 96 samples.

Results

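Interferon regulatory factors are a family of transcription factors that macrophages use when they sense microbes. The 7 members described here, Irf1, Irf2, Irf3, Irf5, Irf7, Irf8 and Irf9, were chosen by gene symbol from the 23481 gene symbols of the count table. All 7 had counts, and 6 were among the 4963 genes with enough counts to be tested, since Irf3 did not pass the filter on low counts. Expression was measured at transcript 3′ ends in 96 libraries of macrophages cultured from the bone marrow of male wild-type C57BL/6 mice 8 weeks of age, in medium conditioned with MCSF (macrophage colony-stimulating factor). In 10 groups a compound was added 30 min ahead of LPS, the lipopolysaccharide of bacterial outer membranes, and cells were lysed 4 h after LPS. The compounds, named as in the labels, were Halofuginone, BrefA, Tunicamycin, tBHQ, pGE2, Dexa, Torin, Caspase-1, Baflo and ZVAD. DMSO wells got the vehicle and LPS, and NoStim wells got no LPS, with no vehicle stated. Each group had 8 wells over 2 plates. The sources used here give no doses, and no group got a compound without LPS. Whether wells were separate cultures and how many mice were used are not stated, so p-values measure the spread between wells, which may be technical.

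All members share an N-terminal domain that binds DNA at interferon-stimulated response elements (ISRE). LPS receptors and nucleic acid sensors switch on IRF3, IRF5 and IRF7 by phosphorylation, and these factors drive interferon and cytokine genes. Secreted interferon then acts through its receptor on a complex that holds STAT2 and IRF9, which binds ISREs and raises antiviral genes and Irf7 itself. Transcription of Irf1 is switched on by interferon, at a gamma-activated site (GAS), and by NF-kB. IRF2 binds the same elements as IRF1 and can oppose it. IRF8 acts with the ETS factor PU.1 in the making and the activation of macrophages and dendritic cells.

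RefSeq promoters (GRCm38.p6, the assembly also called mm10) were found for 7 of 7 members. The 4 printed here belong to the genes with the largest fold changes, and each runs over the 250 bases before a transcription start, 5′ to 3′ on the strand of the gene. Capitals mark a match to ISRE, searched as GAAA, any 2 bases and GAAA, or to GAS, searched as TTC, any 3 bases and GAA, on both strands.
Irf1 promoter: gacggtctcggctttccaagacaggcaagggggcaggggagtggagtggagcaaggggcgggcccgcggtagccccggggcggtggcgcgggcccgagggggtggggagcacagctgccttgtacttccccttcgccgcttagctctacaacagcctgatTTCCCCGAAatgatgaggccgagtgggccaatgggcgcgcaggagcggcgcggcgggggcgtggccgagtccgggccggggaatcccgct
Irf8 promoter: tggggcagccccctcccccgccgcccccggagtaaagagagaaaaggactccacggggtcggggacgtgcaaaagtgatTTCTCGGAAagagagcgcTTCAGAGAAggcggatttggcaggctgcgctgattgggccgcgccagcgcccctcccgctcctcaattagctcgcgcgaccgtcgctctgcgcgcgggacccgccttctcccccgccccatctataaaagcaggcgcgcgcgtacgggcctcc
Irf2 promoter: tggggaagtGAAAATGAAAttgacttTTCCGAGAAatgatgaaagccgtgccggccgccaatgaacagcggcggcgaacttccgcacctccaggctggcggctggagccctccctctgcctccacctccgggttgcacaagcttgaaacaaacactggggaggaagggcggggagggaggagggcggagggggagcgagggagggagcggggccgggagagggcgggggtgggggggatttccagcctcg
Irf7 promoter: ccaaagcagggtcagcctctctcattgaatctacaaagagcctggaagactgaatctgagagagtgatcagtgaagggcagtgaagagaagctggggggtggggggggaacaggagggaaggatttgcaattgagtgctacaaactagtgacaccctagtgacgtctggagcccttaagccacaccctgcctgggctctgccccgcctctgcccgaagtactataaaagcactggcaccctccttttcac
The Irf1 promoter (chr11:53769764-53770013, plus strand) held a GAS at -90 to -82 from the start. The Irf8 promoter (chr8:120736108-120736357, plus strand) held a GAS at -171 to -163 and another at -153 to -145. In the Irf2 promoter (chr8:46739495-46739744, plus strand) an ISRE lay at -241 to -232 and a GAS at -224 to -216. The Irf7 promoter (chr7:141266425-141266674, minus strand) held neither motif in this window. Over the 300 bases that the table gives for each start, 3.44% of 32851 promoters held the ISRE letters, 8.3% the GAS letters and 0.454% both. The promoter of Irf3, that of Irf5, those of Irf9 and the other starts of Irf1 and Irf8 held neither. A match of letters is a description, and no binding was measured here.

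Libraries held 80196 to 379198 counts, with a median of 257984.5. Halofuginone libraries were the shallowest, at 80196 to 136526 counts, and Rn45s, the ribosomal RNA precursor, took 44.7% ± 3.20 of their counts, against 19.4% ± 4.64 in DMSO libraries (SD, n = 8 each). In the other 11 groups the mean Rn45s share lay between 15.3% and 21.8%. No Halofuginone well had a share under 39.0%, and no other well had one over 30.9%. A fit with this share as a covariate, as used below, therefore cannot separate the share from Halofuginone. The 9 macrophage markers had summed medians between 2380 CPM in Halofuginone wells, where 1 of the 9 was at 0, and 4468 CPM in pGE2 wells. Cd14, one of the 9, averaged 2290 CPM in pGE2 wells and 495 CPM in DMSO wells. Some markers of other lineages, such as Cd3e, Pax5, Elane and Hba-a1, had 0 counts over all libraries, and others of the same lists had counts. The T cell genes Lck and Cd3d had 129 and 31 counts, and the neutrophil genes S100a8 and S100a9 78 and 13. The dendritic cell genes Xcr1, Ccr9 and Siglech had 507, 106 and 40, and the fibroblast genes Col1a2 and Dcn 33 and 23. Fibroblast markers summed to at most 65.9 CPM in a well, with ZVAD. Tunicamycin plate 2 F was taken from earlier results of these data, not shown here, as standing apart from its group. It is not among the wells flagged below for single members. Results in Tunicamycin wells are also given without it where it matters. Levels below are CPM, a count divided by the scaled library total and multiplied by 1e6, and they are not compared between genes. Fold changes are log2 with the SE of the fit, from n = 8 wells per group. A gene is called when its adjusted p is under 0.05. In bulk samples fewer cells of a type and less RNA per cell cannot be told apart.

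LPS raised Irf1, Irf7, Irf8 and, least firmly, Irf5, and most calls for compounds were lower. In DMSO wells against NoStim wells 4 of the 6 tested members were called, all higher, where 36.1% of all genes tested were called and 19.5% were higher. Their median fold change was 0.73, against -0.04 over all genes tested.
Among compounds set against DMSO, tBHQ changed the most members, with 5 of 6 lower (36.4% of all genes called, 19.1% lower). BrefA lowered 4 of 6 (17.3% of all genes called, 9.25% lower), with a median of -1.27 over the 6 against 0.01 over all genes. Halofuginone changed 4 of 6, with 1 higher and 3 lower (40.3% of all genes called, 15.3% higher and 25% lower). The median over the 6 was -0.61 there, against -0.20 over all genes tested. For pGE2 the count was 3 of 6, all lower (11.2% of all genes called, 5.98% lower). With Torin 3 of 6 were called, 1 higher and 2 lower (16.7% of all genes called, 9.61% higher and 7.11% lower). Tunicamycin lowered 2 of 6 (4.37% of all genes called, 1.57% lower). In Dexa wells 1 of 6 was lower (3.57% of all genes called, 1.61% lower), as in Caspase-1 wells (2.9% of all genes called, 1.51% lower), and the gene was Irf8 in both.
The wells of both groups did not overlap for 4 members with BrefA (6.17% of all genes), 3 with pGE2 (4.57%), 2 with Halofuginone (10.8%), 2 with tBHQ (12.2%) and 1 each with Dexa (1.37%), Tunicamycin (0.262%) and Caspase-1 (0.484%). No member was called in Baflo wells or in ZVAD wells by edgeR, where 0% of all genes were called, and DESeq2 called none of them either. At an unadjusted p under 0.05 there were 3 members for Baflo and 1 for ZVAD (7.52% and 3.55% of all genes). The 10 compound comparisons share the same DMSO wells, so their values stand side by side and are not independent.

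**Figure D1:**
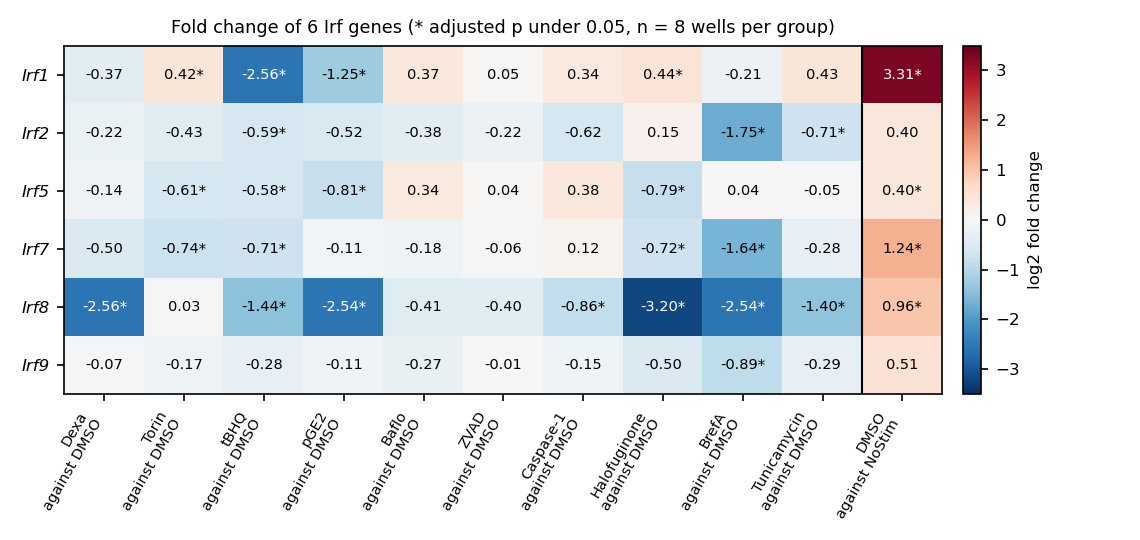
Log2 fold changes of the 6 tested members (rows) in 10 compound comparisons against DMSO and in DMSO against NoStim (columns), with * for an adjusted p under 0.05. Irf8 has the lowest value of the plot, -3.20 with Halofuginone, and Irf1 the highest, 3.31 in DMSO against NoStim.

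Irf8 (ENSMUSG00000041515.10, chr8:120736358-120756694 of mm10) was the member that the compounds lowered most often, in 7 of 10 comparisons, and it was raised in none. It encodes a factor of the myeloid lineage that binds DNA with PU.1. Its lowest, median and highest well had 382, 508 and 673 CPM in DMSO wells, against 203, 273 and 344 CPM in NoStim wells. The wells did not overlap, and LPS raised the gene by 0.96 ± 0.13 (adjusted p = 2.04e-10), where the wells of 12.5% of all genes did not overlap.
Irf8 was lowest with Dexa, pGE2, BrefA and Halofuginone. Its wells had 52.4, 94.0 and 124 CPM with Dexa, 52.4, 86.3 and 129 CPM with pGE2, and 49.3, 96.2 and 109 CPM with BrefA, in each case all below every DMSO well. The fold changes were -2.56 ± 0.15 for Dexa (adjusted p = 8.33e-33), -2.54 ± 0.15 for pGE2 (adjusted p = 2e-33) and -2.54 ± 0.15 for BrefA (adjusted p = 9.67e-33). Halofuginone wells had 31.2, 61.2 and 73.2 CPM, which rest on 2 to 5 counts per well and 31 counts in all, against 1077 counts in DMSO wells. There the fold change was -3.20 ± 0.21 (adjusted p = 1.64e-28). It was -2.90 ± 0.28 with the Rn45s share as a covariate, which cannot be separated from this group.
The fold changes of the other 3 compounds that lowered it were smaller. tBHQ wells had 148, 189 and 222 CPM (-1.44 ± 0.14, adjusted p = 5.98e-18), and Tunicamycin wells had 84.1, 199 and 345 CPM (-1.40 ± 0.14, adjusted p = 2.54e-15). Without Tunicamycin plate 2 F the value for Tunicamycin was -1.37 ± 0.14. Caspase-1 wells had 211, 288 and 328 CPM (-0.86 ± 0.13, adjusted p = 1.49e-06), a call that was lost on plate 2 alone (-0.60, adjusted p = 0.344). In all 3 groups every well lay below every DMSO well.
Torin left Irf8 at 463, 510 and 653 CPM, with a difference from DMSO of 0.03 and a 95% interval of -0.22 to 0.28. Baflo wells (327, 361 and 534 CPM) and ZVAD wells (331, 381 and 478 CPM) overlapped DMSO wells. Their values of -0.41 ± 0.13 and -0.40 ± 0.13 had unadjusted p of 0.00156 and 0.00187 but did not pass over all genes (adjusted p = 0.406 and 0.899).

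**Figure D2:**
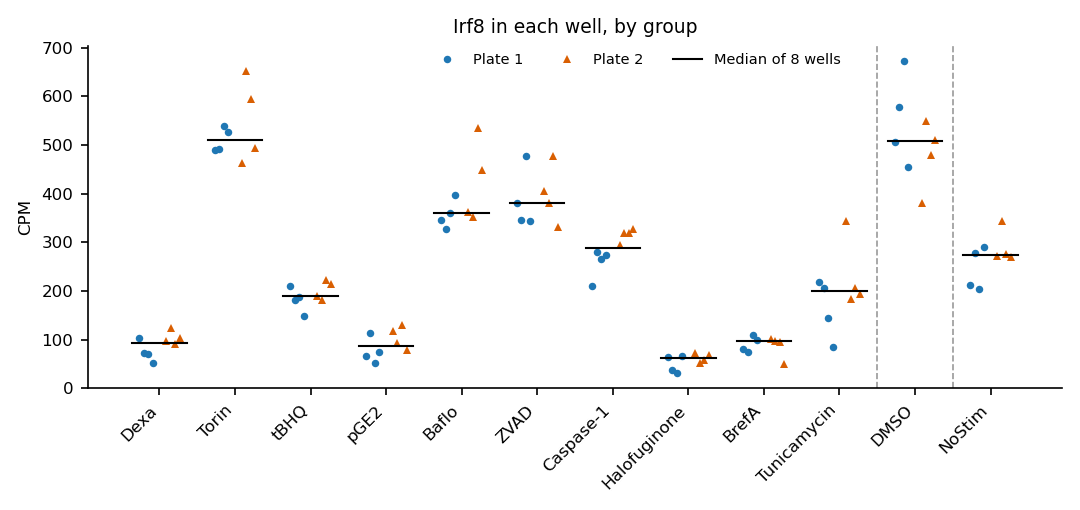
Irf8 in CPM (vertical axis) in each of 96 wells by group (horizontal axis), with plate 1 wells as circles, plate 2 wells as triangles and the median of 8 wells as a line. Dexa, pGE2, BrefA and Halofuginone wells all lie at or below 129 CPM, under the lowest NoStim well at 203 CPM.

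Set against cells without LPS, Irf8 fell below its unstimulated level in 6 of 10 compound groups. It was lower than in NoStim wells with Halofuginone (-2.24 ± 0.22, 54.2% of all genes called), Dexa (-1.60 ± 0.15, 35.6% of all genes called), BrefA (-1.58 ± 0.15, 37.3%) and pGE2 (-1.57 ± 0.15, 34.2%). In these 4 groups no well reached the lowest NoStim well, and the share of all genes with wells apart is not given for these pairs. It was also lower with tBHQ (-0.48 ± 0.14, adjusted p = 0.0136, 8.3% of all genes called) and Tunicamycin (-0.44 ± 0.14, adjusted p = 0.00674, 36.3%), where wells overlapped. Caspase-1 wells differed from NoStim wells by 0.10 ± 0.13, which did not pass (adjusted p = 0.602, 35.6% of all genes called). Torin wells (40.4% of all genes called), ZVAD wells (36.9%) and Baflo wells (34%) held more Irf8 than NoStim wells, by 0.99 ± 0.13, 0.56 ± 0.13 and 0.55 ± 0.13.
In the order of fitted levels, Torin, DMSO, ZVAD, Baflo, Caspase-1 and NoStim came first, and no step between neighbours among them passed. Tunicamycin and tBHQ followed, and the step between them did not pass (adjusted p = 0.879). tBHQ wells held 1.10 ± 0.16 more than pGE2 wells (adjusted p = 1.18e-09, 32.6% of all genes called). Neighbours among pGE2, BrefA and Dexa differed by 0.01 each (adjusted p = 0.999 and 0.983). Dexa wells held 0.64 ± 0.26 more than Halofuginone wells (adjusted p = 0.0429, 40.4% of all genes called).
Beside these values, the 7 dendritic cell markers summed to 106 to 218 CPM in Dexa wells, 147 to 271 CPM in pGE2 wells, 72.6 to 197 CPM in BrefA wells, 17.0 to 133 CPM in Halofuginone wells and 142 to 288 CPM in DMSO wells. Bst2, an antiviral gene that interferon also raises, held most of that sum and was the only marker tested. It was lower with Halofuginone (-1.70 ± 0.28, adjusted p = 1.67e-07) and BrefA (-0.90 ± 0.19, adjusted p = 5.95e-05) and was not called with Dexa or pGE2. Of the others, Xcr1 had 507 counts over all libraries, while Flt3 had 1 count and Cd209a 0 counts. The part of other cell types in the Irf8 values was not tested. The annotation places Irf8 inside Gm20388, a predicted gene on the same strand, and how reads in shared sequence were assigned is not stated.

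Irf1 (ENSMUSG00000018899.16, chr11:53770014-53778374) rose most with LPS. The gene encodes an activator of antigen presentation and antiviral genes that appears early after stimulation. It had 459, 567 and 744 CPM in its lowest, median and highest DMSO well, against 31.2, 53.6 and 95.2 CPM in NoStim wells. The groups did not overlap, and the fold change was 3.31 ± 0.19 (adjusted p = 1.22e-30).
Among the 10 compounds only tBHQ and pGE2 lowered it. tBHQ wells had 68.2, 89.9 and 134 CPM, all below the DMSO wells (-2.56 ± 0.18, adjusted p = 2.43e-24). pGE2 wells had 185, 247 and 275 CPM, also all below (-1.25 ± 0.16, adjusted p = 2.36e-10). Both calls held in each of the 28 settings tried, with values between -2.65 and -2.41 for tBHQ over the 12 settings that left no single library out.
Torin and Halofuginone raised it by small amounts. Torin wells had 617, 763 and 1001 CPM (0.42 ± 0.15, adjusted p = 0.0387), and they overlapped DMSO wells. With same-named wells summed the Torin call was lost (adjusted p = 0.108), as it was with RLE scaling (0.0505), with DESeq2 (0.0558), without a plate term (0.0547) and on plate 1 (0.422) or plate 2 alone (0.0883). It was also lost without any one of DMSO plate 1 E, 2 G or 2 H or Torin plate 1 H, 2 E, 2 G or 2 H (adjusted p of 0.0577 to 0.105), and the value lay between 0.29 and 0.52 over all settings. Halofuginone wells had 511, 737 and 1451 CPM (0.44 ± 0.16, adjusted p = 0.0237). This value was 0.28 without the highest well, plate 1 G (adjusted p = 0.16), and 0.12 without the filter on low counts (adjusted p = 0.751). With the Rn45s share as a covariate, which cannot be separated from this group, it was 1.20 (adjusted p = 9.51e-05). The call was also lost with a filter at 20 CPM (0.0541), with same-named wells summed (0.0706) and on plate 1 (0.119) or plate 2 alone (0.27).
In the remaining groups the gene was not called. Dexa wells had 328, 398 and 603 CPM (-0.37 ± 0.15, adjusted p = 0.22) and BrefA wells 342, 463 and 793 CPM (-0.21 ± 0.15, adjusted p = 0.424). Tunicamycin wells had 380, 749 and 1132 CPM (0.43 ± 0.15, adjusted p = 0.0752), and without plate 2 F, the lowest of them, the value was 0.53 and was called (adjusted p = 0.0151). Of 29 alternative settings, 23 left Irf1 with Tunicamycin not called, and the value lay between 0.25 and 0.59 over all of them. Baflo, ZVAD and Caspase-1 gave 0.37, 0.05 and 0.34, with adjusted p of 0.591, 1 and 0.171.

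**Figure D3:**
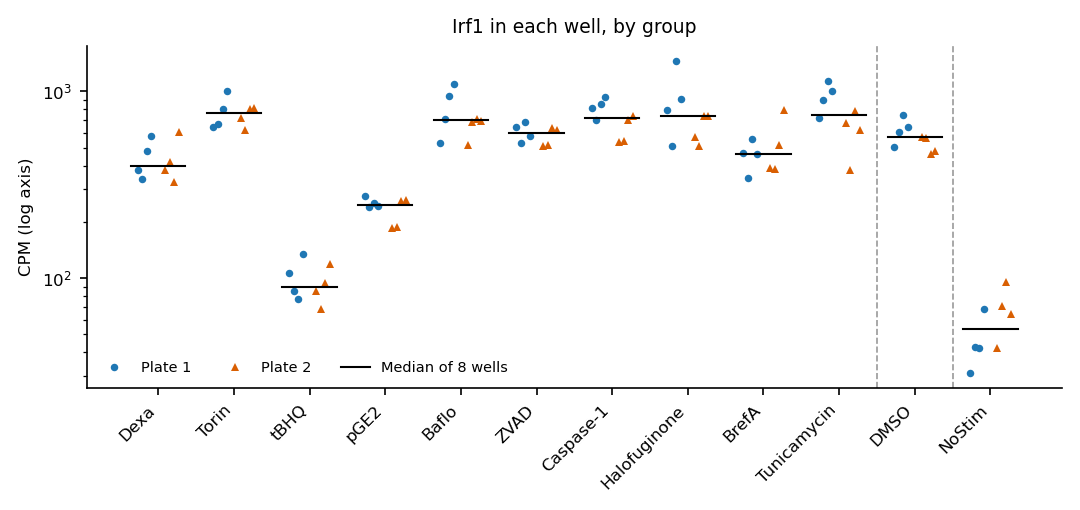
Irf1 in CPM (vertical log axis) in each of 96 wells by group (horizontal axis), with plate 1 wells as circles, plate 2 wells as triangles and the median of 8 wells as a line. pGE2 wells at 185 to 275 CPM and tBHQ wells at 68.2 to 134 CPM lie below all DMSO wells, which start at 459 CPM.

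With every compound Irf1 was called above its level without LPS, least firmly with tBHQ. It was higher than in NoStim wells in 10 of 10 compound groups, by 0.75 ± 0.22 with tBHQ (adjusted p = 0.0144), by 2.05 ± 0.19 with pGE2 and by 2.93 ± 0.19 to 3.74 ± 0.20 with the other 8. tBHQ wells overlapped NoStim wells, and the wells of the other 9 groups did not. The share of all genes with wells apart is not given for these pairs. Medians with tBHQ and in NoStim wells were 95.9 and 42.7 CPM on plate 1, and 89.9 and 67.7 CPM on plate 2. Whether the tBHQ call against NoStim wells holds under other settings was not tested. In the order of levels, Dexa wells held 0.88 ± 0.16 more than pGE2 wells (adjusted p = 6.98e-06, 13.3% of all genes called), and pGE2 wells held 1.30 ± 0.18 more than tBHQ wells (adjusted p = 3.04e-09). The 8 steps from Halofuginone, the highest, down to Dexa did not pass.

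Irf7 and Irf9 belong to the arm of the pathway that answers secreted interferon, Irf9 as the DNA-binding subunit of its complex with STAT2 and Irf7 as its amplifier. Irf7 (ENSMUSG00000025498.15, chr7:141262706-141266481) had 148, 198 and 241 CPM in DMSO wells, against 55.4, 81.7 and 121 CPM in NoStim wells. The groups did not overlap (1.24 ± 0.19, adjusted p = 1.33e-08). BrefA wells had 46.1, 62.1 and 85.3 CPM, all below the DMSO wells (-1.64 ± 0.20, adjusted p = 1.44e-11). That level overlapped NoStim wells, and the difference from them, -0.40 ± 0.22, did not pass (adjusted p = 0.145).
Torin, tBHQ and Halofuginone lowered Irf7 as well. Torin wells had 73.6, 117 and 156 CPM (-0.74 ± 0.19, adjusted p = 0.0022) and tBHQ wells 65.5, 124 and 185 CPM (-0.71 ± 0.18, adjusted p = 0.000965). Halofuginone wells had 31.2, 108 and 324 CPM on 2 to 19 counts per well (-0.72 ± 0.24, adjusted p = 0.0105). Wells of all 3 groups overlapped DMSO wells. On plate 2 alone none of the 3 passed (adjusted p = 0.126 for Torin, 0.0576 for tBHQ and 0.138 for Halofuginone). The Halofuginone call was also lost with the Rn45s share as a covariate (-0.34, adjusted p = 0.557) and without DMSO plate 1 G (adjusted p = 0.0545) or Halofuginone plate 2 G (adjusted p = 0.0503). That covariate cannot be separated from the Halofuginone group.
Among the other 6 compounds the Irf7 values ran between -0.50 with Dexa (adjusted p = 0.124) and 0.12 with Caspase-1 (adjusted p = 0.733), and none passed. Compared with NoStim wells it was higher in 7 of 10 compound groups, the exceptions being tBHQ, Halofuginone and BrefA. In the order of levels the only step between neighbours that passed was from Torin to NoStim (0.50 ± 0.21, adjusted p = 0.0412). The last 45 bases of the gene overlap Phrf1 on the other strand, and whether counting used strand is not stated. Phrf1 was higher with BrefA (0.79 ± 0.25, adjusted p = 0.0134), opposite to Irf7, and it was not called in any other comparison.

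Irf9 (ENSMUSG00000002325.15, chr14:55603571-55610030) had 56.1, 68.0 and 112 CPM in DMSO wells, against 31.7, 52.2 and 83.7 CPM in NoStim wells. These overlapped, and the value of 0.51 ± 0.21 lay at the threshold (adjusted p = 0.0509). It was called without NoStim plate 2 D (adjusted p = 0.0136), without DMSO plate 2 F (0.0472), without DMSO plate 2 G (0.0333), on plate 1 alone (0.0482) and with the Rn45s share as a covariate (0.0478). BrefA alone lowered Irf9, to 26.7, 39.3 and 54.9 CPM on 5 to 13 counts per well, all below the DMSO wells (-0.89 ± 0.23, adjusted p = 0.00154). On plate 2 alone that call was lost (-0.70, adjusted p = 0.218). The other 9 compounds gave values between -0.50 with Halofuginone and -0.01 with ZVAD, none of which passed. The Halofuginone value lay between -0.85 and -0.30 with 1 library left out, and it was called without Halofuginone plate 1 F (-0.85, adjusted p = 0.0365). Compared with NoStim wells, Irf9 was higher in ZVAD wells alone (0.50 ± 0.21, adjusted p = 0.0457), and no step between neighbours in the order of levels passed.

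Irf2 (ENSMUSG00000031627.9, chr8:46739732-46847458), which competes with Irf1 for its sites, was not called with LPS. DMSO wells had 50.3, 98.9 and 152 CPM and NoStim wells 33.4, 76.9 and 141 CPM (0.40 ± 0.21, adjusted p = 0.134), though it was on plate 1 alone (0.84, adjusted p = 0.0176). BrefA wells had 5.34, 30.8 and 49.5 CPM on 1 to 15 counts per well, just below the lowest DMSO well (-1.75 ± 0.25, adjusted p = 3.95e-09). They were also lower than NoStim wells (-1.35 ± 0.26, adjusted p = 4.21e-06), and lower than Tunicamycin wells, which held 1.04 ± 0.27 more (adjusted p = 0.00212, 16.9% of all genes called).
tBHQ and Tunicamycin lowered Irf2 less firmly. tBHQ wells had 50.9, 64.2 and 94.0 CPM (-0.59 ± 0.22, adjusted p = 0.0244), and the call was lost with RLE scaling (0.0876), with DESeq2 (0.0897), on plate 1 (0.0656) or plate 2 alone (0.265), and without DMSO plate 1 F (0.0923), DMSO plate 1 G (0.0737) or tBHQ plate 2 G (0.0742). Tunicamycin wells had 28.8, 52.8 and 103 CPM (-0.71 ± 0.22, adjusted p = 0.0431). That call was lost with same-named wells summed (0.0853), on plate 2 alone (-0.27, adjusted p = 0.958), without a plate term (0.0563), without the filter (0.0589) and in the fit of both groups alone (0.0869). It was lost too without Tunicamycin plate 2 F (0.0888), and without any one of DMSO plate 1 F, 1 G, 1 H, 2 E, 2 F or 2 G or Tunicamycin plate 1 F, 1 G or 1 H (0.0503 to 0.136). Wells of both groups overlapped DMSO wells. The other 7 compounds gave values between -0.62 with Caspase-1 (adjusted p = 0.0787) and 0.15 with Halofuginone (adjusted p = 0.673), none past the threshold. Caspase-1 passed in the fit of both groups alone (-0.63, adjusted p = 0.0416) and without Caspase-1 plate 2 G (-0.72, adjusted p = 0.0467), and pGE2 in the fit of both groups alone (-0.52, adjusted p = 0.0433) and without DMSO plate 2 H (-0.62, adjusted p = 0.0465).

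Irf5 (ENSMUSG00000029771.12, chr6:29526625-29541871), which drives cytokine genes downstream of MyD88, had values between -0.81 and 0.40 in the 11 comparisons with DMSO on one side. DMSO wells had 165, 192 and 223 CPM and NoStim wells 123, 142 and 174 CPM, with a small overlap (0.40 ± 0.15, adjusted p = 0.0283). RLE scaling put the median of all genes in this comparison at -0.19, where the TMM scaling used throughout gave -0.04, and Irf5 was then not called (0.24, adjusted p = 0.207), nor was it with DESeq2 (adjusted p = 0.183), on plate 1 (0.205) or plate 2 alone (0.229), or without any one of NoStim plate 1 A, 1 B, 1 D or 2 C or DMSO plate 1 G, 1 H, 2 E or 2 H (0.0566 to 0.104).
pGE2 wells had 75.9, 106 and 138 CPM and Halofuginone wells 51.1, 126 and 138 CPM, in both cases all below the DMSO wells. The fold changes were -0.81 ± 0.16 for pGE2 (adjusted p = 1.87e-05) and -0.79 ± 0.20 for Halofuginone (adjusted p = 0.000782). With the Rn45s share as a covariate, which cannot be separated from this group, the Halofuginone value was -0.13 (adjusted p = 0.794). Torin wells had 63.9, 133 and 197 CPM (-0.61 ± 0.16, adjusted p = 0.00268) and tBHQ wells 72.6, 137 and 177 CPM (-0.58 ± 0.15, adjusted p = 0.00137), and both overlapped DMSO wells. On plate 2 alone pGE2 (0.107), Halofuginone (0.0614) and tBHQ (0.0679) did not pass, and Torin did not on plate 1 alone (0.159). Caspase-1 was not called (0.38 ± 0.14, adjusted p = 0.109), as in 26 of 28 alternative settings, where the lowest adjusted p was 0.0397. Against NoStim wells, pGE2 wells were lower (-0.42 ± 0.16, adjusted p = 0.0295), and Baflo, Caspase-1, ZVAD and BrefA wells were higher, by 0.44 ± 0.15 to 0.78 ± 0.15. No step between neighbours in the order of Irf5 levels passed. The 3′ end of Irf5 overlaps Tnpo3 on the other strand over 1045 bases. Tnpo3 was lower with tBHQ (-0.59 ± 0.19, adjusted p = 0.0079) and was not called elsewhere. With the other compounds that lowered Irf5 it had -0.57 ± 0.25 for Halofuginone (adjusted p = 0.0598), -0.38 ± 0.19 for Torin (0.167) and -0.22 ± 0.18 for pGE2 (0.54). The part of shared sequence in the Irf5 values was not tested.

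**Figure D4:**
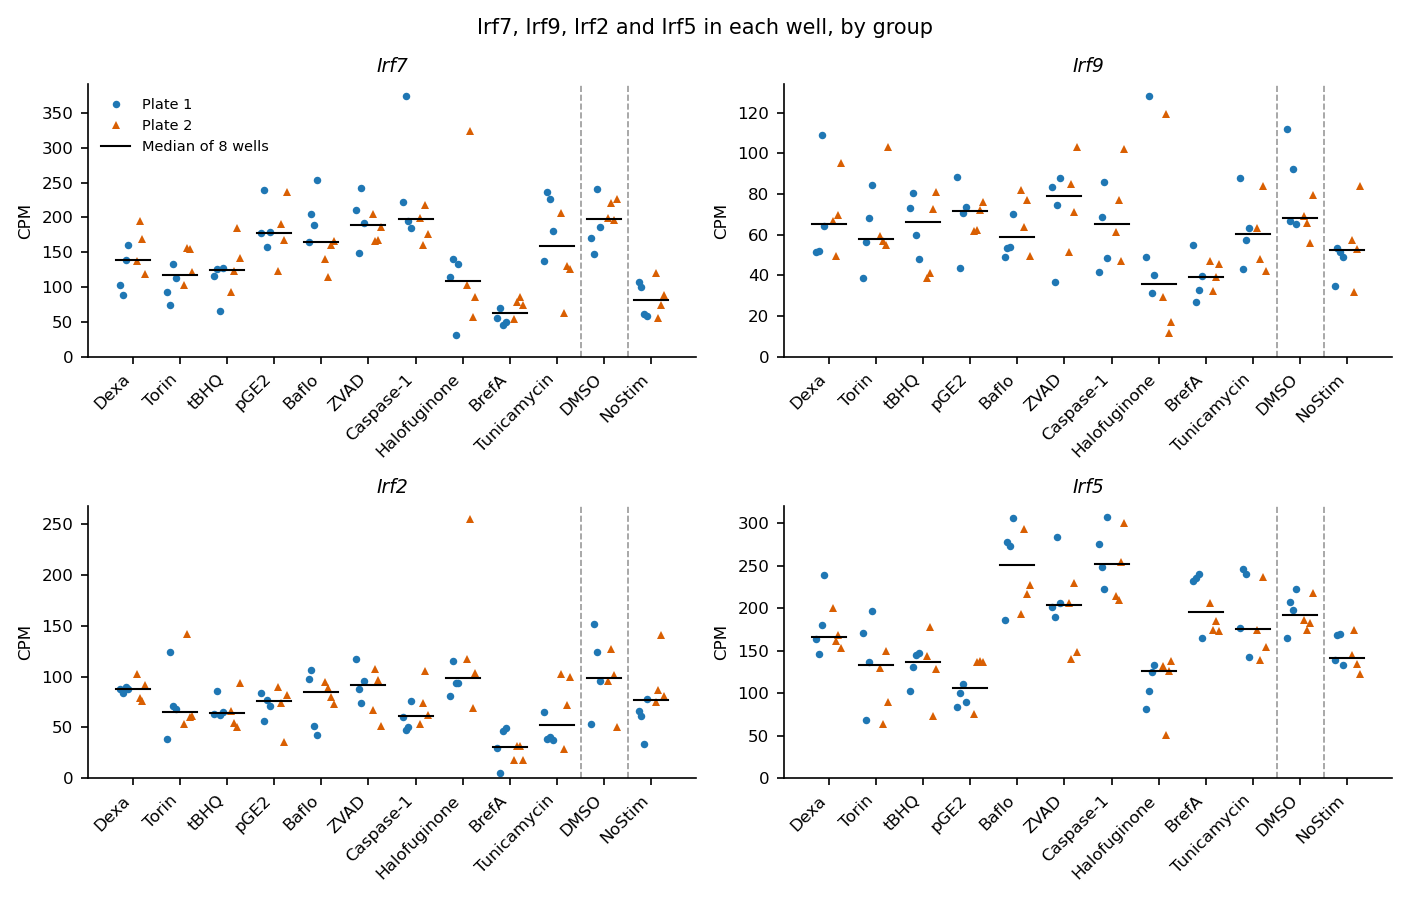
Irf7, Irf9, Irf2 and Irf5 in CPM (vertical axes, each with its own scale) in each of 96 wells by group (horizontal axes), with plate 1 wells as circles, plate 2 wells as triangles and the median of 8 wells as a line. BrefA wells are below all DMSO wells for Irf7, Irf9 and Irf2, while pGE2 and Halofuginone wells are below all DMSO wells for Irf5.

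Irf3 (ENSMUSG00000003184.15, chr7:44997648-45002848), which is activated by phosphorylation and drives the first interferon, had 416 counts over all libraries. DMSO wells had 8.38, 15.5 and 25.9 CPM and NoStim wells 0, 8.49 and 27.7 CPM, on 0 to 9 counts per well. Without the filter none of the 11 comparisons called it in edgeR (0.43 ± 0.41 for LPS, adjusted p = 0.585), and 1 had an unadjusted p under 0.05. That was Halofuginone, with 17.0, 43.0 and 81.3 CPM on 1 to 5 counts per well (1.12 ± 0.45, adjusted p = 0.0773). With same-named wells summed Irf3 passed the filter, and the Halofuginone value was 1.44 ± 0.44 (adjusted p = 0.00767). A change in the other comparisons was not detectable at this depth.

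The pathway lists used next were chosen with earlier results of these data known. Upstream, LPS raised 8 and lowered 2 of 12 tested sensing and adaptor genes, with a median of 0.82 (36.1% of all genes called, 19.5% higher). Ifih1, which senses viral RNA, rose by 2.27 ± 0.16, Mb21d1, which encodes the DNA sensor cGAS, by 2.06 ± 0.21, and the adaptor gene Myd88 by 1.44 ± 0.25, while the kinase gene Irak4 fell by 1.01 (SE 0.24). tBHQ lowered 7 of the 12, with a median of -0.78, where 19.1% of all genes were lower, and BrefA lowered 3, where 9.25% of all genes were lower. Cd14, the LPS coreceptor, was 2.22 ± 0.13 higher with pGE2, the largest change of this list among the compounds. Halofuginone raised 4, among them Tank (1.39 ± 0.19), which encodes an adaptor of the kinase TBK1 that phosphorylates IRF3, and lowered 2, beside 15.3% of all genes higher and 25% lower.
Of 12 tested genes of interferon receptor signalling, LPS raised 7 (19.5% of all genes higher) and lowered none. Socs1, a feedback inhibitor, rose by 4.35 ± 0.30, and Stat2, the partner of IRF9, by 2.01 ± 0.19. tBHQ lowered 9 of the 12 (19.1% of all genes lower), including Socs1 (-3.34 ± 0.27), Stat2 (-1.44 ± 0.18) and the receptor gene Ifnar1 (-0.67 ± 0.12, chosen after its value was seen). BrefA lowered 6 (9.25% of all genes lower), including Socs1 (-4.07 ± 0.30), Usp18 (-1.60 ± 0.21) and Stat2 (-1.53 ± 0.18). Torin lowered 3, where 7.11% of all genes were lower. Halofuginone raised 1 and lowered 4, beside 15.3% of all genes higher and 25% lower, so these counts are no result about the list.

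Targets of the family changed in the same wells. Of 26 tested antiviral genes with ISRE-driven transcription, LPS raised 26 (19.5% of all genes higher), with a median of 2.05 against -0.04 over all genes tested. The largest changes were in Rsad2 (4.17 ± 0.20) and Cmpk2 (3.67 ± 0.22), neighbouring genes of an antiviral nucleotide pathway, Oasl1 (3.48 ± 0.23) and Ifit1 (3.03 ± 0.16). tBHQ lowered 24 of them (median -1.51, 19.1% of all genes lower) and BrefA 22 (median -1.58, 9.25% of all genes lower). Irf7 had -0.71 with tBHQ and -1.64 with BrefA. Mx1 had -2.50 ± 0.20 and Cmpk2 -2.41 ± 0.20 with BrefA. Genes of the sensing and receptor lists, where BrefA lowered 3 and 6, did not all follow. Isg15 (0.03 ± 0.16, adjusted p = 0.94), Ifih1 (-0.29 ± 0.15, adjusted p = 0.195) and Ddx58 (-0.35 ± 0.23, adjusted p = 0.353) rose with LPS and were not called with BrefA. These 3 were named after their values were seen. Halofuginone lowered 17 (median -0.98 against -0.20 over all genes tested, 25% of all genes lower). Torin lowered 9 (median -0.44, 7.11% of all genes lower). Fewer were lower with pGE2 (5, beside 5.98% of all genes), Dexa (4, 1.61%), Tunicamycin (3, 1.57%) and Caspase-1 (1, 1.51%), and none with Baflo or ZVAD. No compound raised any gene of this list, though Halofuginone raised Ddx58 (0.96 ± 0.24) and Ifih1 (0.58 ± 0.16) of the sensing list, both named after their values were seen.
Among 16 tested genes linked to IRF1, LPS raised 16 (median 2.11, 19.5% of all genes higher). The list holds genes of antigen presentation and guanylate-binding proteins, and also Cxcl9, Cxcl10, Casp1, Casp4, Il15, Il15ra and Cd274. Gbp7 (3.47 ± 0.18) and Il15ra (3.41 ± 0.33) led them. tBHQ lowered 16 (median -1.64, 19.1% of all genes lower) and BrefA 15 (median -0.73, 9.25% of all genes lower). Irf1 itself had -2.56 with tBHQ and -0.21 with BrefA. Tap1, a peptide transporter gene, had -2.10 ± 0.22 with BrefA. pGE2, which also lowered Irf1, lowered 6 of 16 (median -0.42, 5.98% of all genes lower), most of all the chemokine gene Cxcl9 (-1.98 ± 0.22). Halofuginone lowered 10 and raised 2 (25% of all genes lower and 15.3% higher). Torin lowered 5 and raised 1, the checkpoint ligand gene Cd274 (1.19 ± 0.18), beside 7.11% of all genes lower and 9.61% higher.
Of 7 tested cytokine genes linked to IRF5, LPS raised 6 (median 3.53, 19.5% of all genes higher), and tBHQ lowered 7 (median -2.63, 19.1% of all genes lower). pGE2 lowered 4 (5.98% of all genes lower), such as Il12b (-3.17 ± 0.21) and Ccl3 (-2.49 ± 0.16), and raised Il6 (0.87 ± 0.20, named after its value was seen). BrefA raised 3, Il23a (2.99 ± 0.37), Il12b (2.07 ± 0.15) and Tnf (0.74 ± 0.12), and lowered Il6 (-0.74 ± 0.23), with Irf5 at 0.04 ± 0.15. Of all genes, 17.3% were called with BrefA and 9.25% were lower. Halofuginone lowered 5 and raised 2 (25% of all genes lower and 15.3% higher), with Irf5 at -0.79. Torin lowered 2 (7.11% of all genes lower), with Irf5 at -0.61. Dexa lowered 3 (1.61% of all genes lower), with Irf5 at -0.14 and not called. Tunicamycin lowered 1 (1.57% of all genes lower) and Caspase-1 raised 1 (2.9% of all genes called). No gene of this list was called with Baflo or ZVAD. Transcript levels of the factors and of these lists were measured in the same wells, and no link between them was tested.

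**Figure D5:**
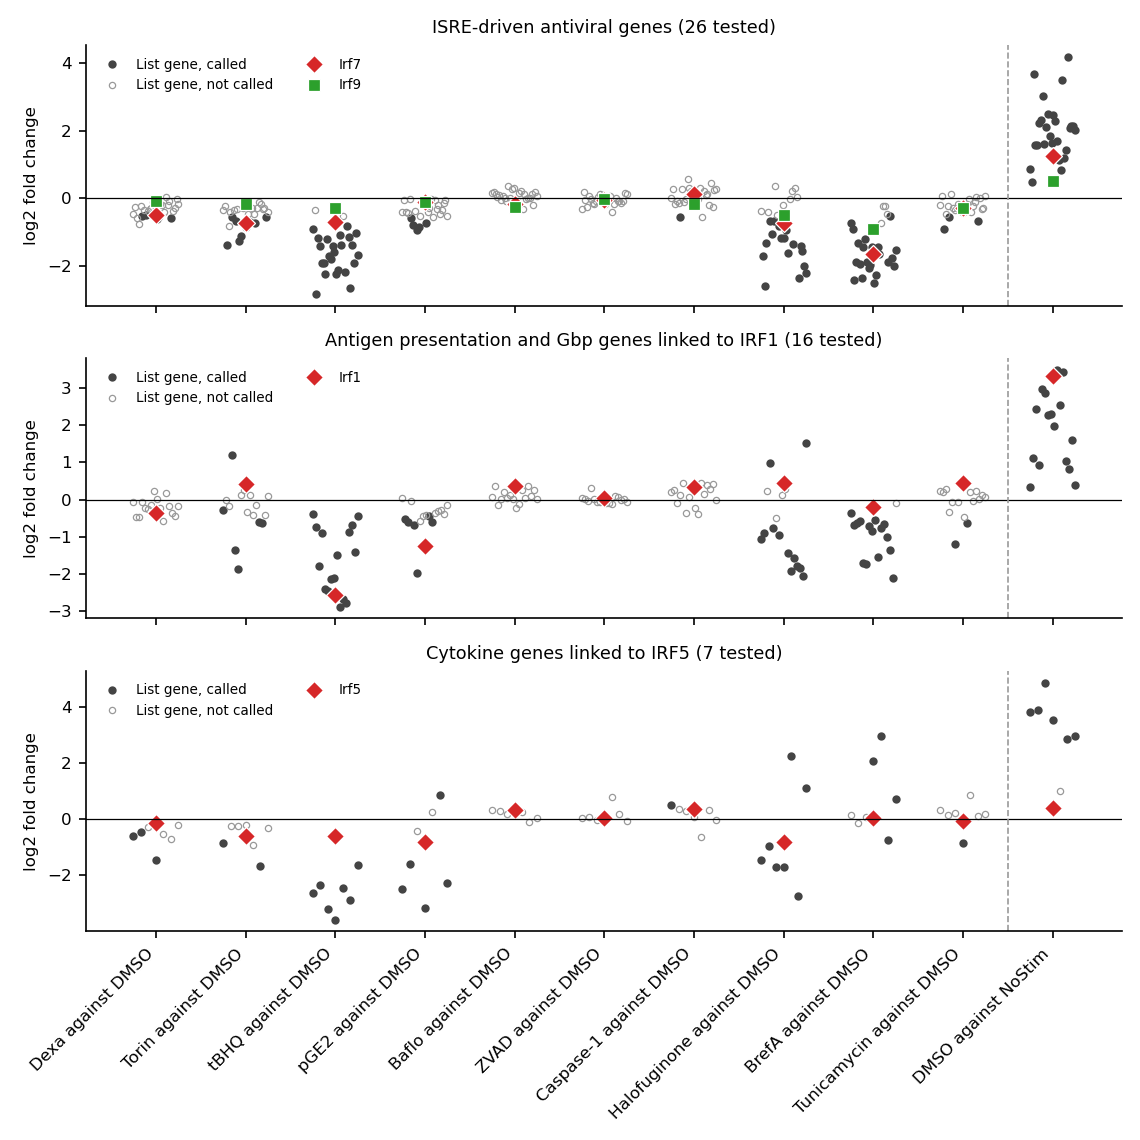
Log2 fold changes (vertical axes) of list genes, as filled circles where called and open circles where not, with the members Irf7 and Irf9, Irf1 or Irf5 as large symbols, in 11 comparisons (horizontal axis). With BrefA 22 of 26 antiviral genes were lower and Irf7 was at -1.64. In the same comparison 15 of 16 genes linked to IRF1 were lower and Irf1 was at -0.21. Of all genes, 9.25% were lower with BrefA.

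Partner factors moved in more than one direction. Sfpi1, the older symbol of Spi1, which encodes PU.1, fell with pGE2 (-0.53 ± 0.17, adjusted p = 0.0227) and Halofuginone (-0.74 ± 0.24, adjusted p = 0.00795), 2 of the 4 compounds with the lowest Irf8, and was not called in Dexa or BrefA wells. It was named after its values were seen. Batf2, a partner of IRF1 in macrophages, rose by 2.90 ± 0.41 with LPS and was lower with Halofuginone (-4.14 ± 0.83), BrefA (-2.94 ± 0.43), tBHQ (-2.53 ± 0.41) and Dexa (-1.23 ± 0.34). The Halofuginone value rests on a mean of 1.6 CPM, near 0 in these shallow libraries, against 39 CPM in DMSO wells. Of 5 further genes named for the family, 2 were tested. Irf2bp2, whose product binds IRF2 as a corepressor, fell with LPS (-2.44 ± 0.21) and was higher with tBHQ (1.99 ± 0.22), Halofuginone (1.64 ± 0.29) and Torin (1.07 ± 0.25). Irf2bpl fell with LPS (-0.98 ± 0.24) and with BrefA (-0.83 ± 0.30) and was higher with Torin (1.28 ± 0.24).

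Likeness of pattern was measured as Pearson r over the 12 fitted group means, as a description. These means share the 96 libraries and, in 11 groups, the LPS treatment. Irf1 was most like Icam1, an adhesion molecule gene (r = 0.98), Klf7 (0.98) and Sbds (0.98). Irf7 was most like the interferon-inducible GTPase genes Iigp1 (0.91) and Irgm1 (0.91) and Tor3a (0.91). For Irf9 the most like were Xrn1 (0.91), Fam46a (0.90) and Stard3 (0.89), and for Irf5 Ikzf5 (0.92), Sfpi1 (0.89) and Katna1 (0.89). Irf2 was most like Tnfrsf11a (0.93), which encodes the receptor RANK, Tbc1d13 (0.86) and Ggta1 (0.85). Irf8 had the least close matches, Bloc1s6 (0.84), Eif4e3 (0.81) and Sdc3 (0.81). Among the members themselves r ran between -0.25 for Irf2 with Irf5 and 0.86 for Irf7 with Irf9, and it was 0.09 for Irf1 with Irf8.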

How the data were processed

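Per the labels' protocols, 3′ end libraries were made with a modified SCRB-Seq method and Nextera reagents. The deposited values are raw counts per gene symbol, which the authors made with BWA on mm10, per the submitters' processing notes. No version of the aligner is given, and the annotation and any use of strand or molecular identifiers are not stated either. Groups came from the labels.

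Counts were scaled by TMM and filtered with filterByExpr, which left 4963 genes. They were fitted in edgeR 4.0.16 (R 4.3.3) by quasi-likelihood with group and plate as terms over all 96 libraries. P-values were adjusted by Benjamini-Hochberg over all genes within each of 11 comparisons, and likewise within each of 66 pairs of groups, with 0.05 as the threshold. The fit was tested on simulated data. Alternatives included DESeq2 1.42.0, other filters and scalings, each plate alone, summed wells and each library left out. They were run for the 11 comparisons and not for the other pairs of groups. Gene coordinates are from GENCODE M21, on mm10. No protein sequences were used here.

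The members and lists were chosen with earlier results of these data known. All members were named. Of each list the up to 4 largest called changes in a comparison could be named, and of the patterns most like a member the 3 with the highest r among genes of at least 30 CPM. Well letters were not used to pair the groups in the main fit. Deviations of wells with the same letter on a plate had a mean r of 0.0489 between groups, from 0.0272 to 0.114 by letter and plate, and no r was tested.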

Additional observations from a re-analysis of the deposited data

Results flagged for a closer look

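In 5 of 84 groups of 8 wells (7 members in 12 groups) 1 well lay far from the other 7, with a gap to its nearest neighbour over 0.526 of the whole range. Chance flags about 1 in 20 groups.

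Irf1 had 1450.52 CPM, from 93 counts, in Halofuginone plate 1 G, while the other 7 wells had 511 to 906 CPM. Without that well the Irf1 value for Halofuginone against DMSO was 0.28 ± 0.16 and was not called (adjusted p = 0.16). BrefA plate 2 H had 792.66 CPM of Irf1, above the 342 to 553 CPM of the other wells, and without it the value for BrefA was -0.36 ± 0.15 (adjusted p = 0.0816).

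Halofuginone plate 2 F stood out for a pair of members. Irf2 had 255.55 CPM there, from 15 counts, against 68.9 to 117 CPM in the other wells, and the value without it was -0.05 ± 0.28. Irf7 had 323.70 CPM in the same well, from 19 counts, against 31.2 to 141 CPM in the others. The Irf7 value without it was -1.03 ± 0.25 (adjusted p = 0.000473).

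Irf7 had 373.84 CPM in Caspase-1 plate 1 F, where the other wells had 161 to 222 CPM, and the value without that well was -0.04 ± 0.17.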

How the results depend on the processing

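No fold change of a member reversed where it was called. Of all values of single members under an alternative, 1759 kept their side of the threshold, 67 lost it and 22 gained it. Irf8 kept its calls in every setting, each library left out included, except with Caspase-1 on plate 2 alone. For LPS its values lay between 0.73 and 1.14 over the settings that left no single library out.

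Counts of members called moved by over 1.5 times as follows. For Dexa, with 1 called, both compared groups alone and the replicate block each gave 2. For Torin, with 3, plate 1 alone gave 1 and plate 2 alone 1. For tBHQ, with 5, plate 2 alone gave 2. For Caspase-1, with 1, DESeq2 gave 2, plate 2 alone 0 and both compared groups alone 4, and leaving out 1 library gave 1 to 2. For Halofuginone, with 4, plate 2 alone gave 1, and the Rn45s covariate, which cannot be separated from this group, gave 2. For Tunicamycin, with 2, no plate term, plate 2 alone, summed wells and both compared groups alone each gave 1, and leaving out 1 library gave 1 to 2. Fewer wells were used on 1 plate; otherwise the cause was not tested.

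The block of well letter within plate added Irf1 with Dexa (-0.39, adjusted p = 0.0376), which passed in no other setting, and with Tunicamycin (0.42, adjusted p = 0.0175). It could not enter the LPS comparison, since NoStim wells carry other letters. Deviations of same-named wells on both plates had a positive r in 12 of 12 groups, from 0.0567 to 0.266 (mean r 0.163 over 2670 genes), which was not tested. The difference between plates was called for no member in 66 tests by edgeR, with 7 at an unadjusted p under 0.05 (lowest adjusted p = 0.301). This was not run in DESeq2. Depth limits Irf3 throughout, and Irf2, Irf5, Irf7, Irf8 and Irf9 in Halofuginone wells, which rest on few counts.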
